A study of Equus caballus with 2 samples.

Results

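The genes described here are the epidermal growth factor (EGF) family of signals and their receptors in horse endometrial fibroblasts: the ligand genes AREG, EREG, HBEGF, TGFA, BTC and NRG1, and the receptor genes EGFR, ERBB2 and ERBB3. They were taken by gene symbol, and all 9 were found among the 21426 genes of both count tables. Of the 9 members, 8 had a mean of at least 1 CPM (UMIs per 1000000 UMIs of the library) over the 2 libraries, and ERBB3 did not. Stromal fibroblasts of the mare's uterine lining were isolated from 4 mares, grown on collagen-coated hydrogels, and cultured in medium with 10% and then 4% serum. From 48 to 72 h the serum was replaced by 0.1% BSA in both groups. The control group received no supplement, and the TGF-β1 group received 10 ng/ml human recombinant TGF-β1, a growth factor that drives fibroblasts towards a matrix-producing state, for 24 h. The cells of the 4 mares were pooled within each group and made into 1 droplet library per group, and the group treated with MFGE8 was not analysed here.

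EGF family ligands are made as membrane-anchored precursors, and proteases of the ADAM family release their soluble parts. AREG (amphiregulin), EREG (epiregulin), HBEGF (heparin-binding EGF-like growth factor), TGFA (transforming growth factor alpha) and BTC (betacellulin) bind EGFR, and some of them also bind ERBB4. NRG1 (neuregulin 1) binds ERBB3 and ERBB4, and ERBB2 has no known ligand of its own and acts as a partner of the other receptors. Bound receptors pair and pass the signal on through adaptor proteins, RAS and the kinase ERK, and in the uterus ligands of this family take part in growth of epithelium and stroma and in preparation for the embryo.

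The cells used had 20000 or more UMIs, 3500 or more genes and less than 4% of UMIs from mitochondrial genes. A UMI (unique molecular identifier) marks 1 captured transcript, read at its 3′ end, so a level was not divided by gene length. The control library kept 3865 cells with 210497250 UMIs and a median of 50313 UMIs per cell, and the TGF-β1 library kept 4513 cells with 219731144 UMIs and a median of 43142. Summed fibroblast markers were at 21715 CPM in controls and 21795 CPM after TGF-β1, a sum in which the collagens COL1A1, COL1A2 and COL3A1 were higher after TGF-β1 while VIM went from 4399 to 2240, THY1 from 216 to 87.5, PDGFRA from 50.5 to 16.7 and PDGFRB from 80.1 to 49 CPM. EPCAM, CDH1 and PTPRC, which define epithelial and immune cells, had at most 6 UMIs per library. Of the other listed immune, pericyte or muscle markers, 4 were found in many cells: CD68 was found in 56.9% of controls and 55.4% of TGF-β1-treated cells, CD14 in 24.7% and 18.3%, RGS5 in 61.2% and 67.7% and MYH11 in 38.5% and 27.8%, each cell at 20000 UMIs. The rest were rare, from MCAM in 9.13% and 2.92% of cells down to CD3E and LYZ with at most 2 UMIs per library. The part of these markers in the results was not tested. The summed epithelial markers nevertheless were at 134 CPM in controls and 12.3 CPM after TGF-β1, of which the keratin KRT8 accounted for 114 and 4.48 CPM and KRT7 for 19.3 and 7.04 CPM. Of the barcode sequences, 2 were kept in both libraries. Values in controls are those of the control library, and values after TGF-β1 those of the TGF-β1 library. With 1 library per group there are no replicates: no test was made, all intervals are 95% and cover counting error only, and treatment, library preparation and each mare's share of the pool cannot be told apart.

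Of the 6 ligand genes, 5 were over 2-fold higher after TGF-β1, and none of the 3 receptor genes was. AREG differed most, 9.79-fold, followed by EREG (3.65-fold), HBEGF (3.37-fold), BTC (2.66-fold) and TGFA (2.22-fold). NRG1, EGFR and ERBB2 each differed by less than 1.5-fold. Among all 12116 genes averaging 1 CPM or more, 3.45% were more than 2-fold higher and 3.46% more than 2-fold lower, or 6.91% in either direction, and no member with that mean was more than 2-fold lower. Of the 5 ligands, 3 (AREG, EREG and HBEGF) also had an average of 10 CPM or more, AREG only through its level after TGF-β1, and 2.3% of all genes with that mean were more than 2-fold higher. The median log2 ratio over the 12116 genes was -0.01.

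AREG (ENSECAG00000022525), a ligand of EGFR alone, had 1508 UMIs in controls, or 7.16 CPM (6.81 to 7.53), and 15404 UMIs after TGF-β1, or 70.1 CPM (69 to 71.2). The log2 ratio (TGF-β1 over control in each case) was 3.29 (3.21 to 3.37), which ranked 19 from the top among all genes averaging 1 CPM or more. In the control library AREG lay below NRG1 and HBEGF, and after TGF-β1 it lay above both and above EGFR.

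EREG (ENSECAG00000007588), which binds EGFR and ERBB4, was the ligand with the highest level in both libraries. It had 77.4 CPM (76.2 to 78.6) in controls and 282 CPM (280 to 285) after TGF-β1, with a log2 ratio of 1.87 (1.84 to 1.89). There were 10.8 EREG UMIs for each AREG UMI in controls and 4.03 after TGF-β1, so the distance between both genes was smaller after TGF-β1 although both were higher.

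HBEGF (ENSECAG00000010656), which also binds EGFR and ERBB4 and has affinity for heparan sulfate, had 16.5 CPM (15.9 to 17) in controls and 55.5 CPM (54.5 to 56.5) after TGF-β1. Its log2 ratio was 1.75 (1.70 to 1.81), close to that of EREG. EREG UMIs stood at 4.7 per HBEGF UMI in controls and 5.09 after TGF-β1.

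The other EGFR ligands were rare. BTC (ENSECAG00000050004) had 2.55 CPM (2.34 to 2.77) in controls and 6.79 CPM (6.45 to 7.14) after TGF-β1, with a log2 ratio of 1.41 (1.27 to 1.56). TGFA (ENSECAG00000011006) had 3.35 CPM (3.11 to 3.61) and 7.45 CPM (7.09 to 7.82), with a log2 ratio of 1.15 (1.02 to 1.28). The intervals of TGFA and BTC overlapped after TGF-β1, and TGFA was above BTC in controls.

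**Figure D1:**
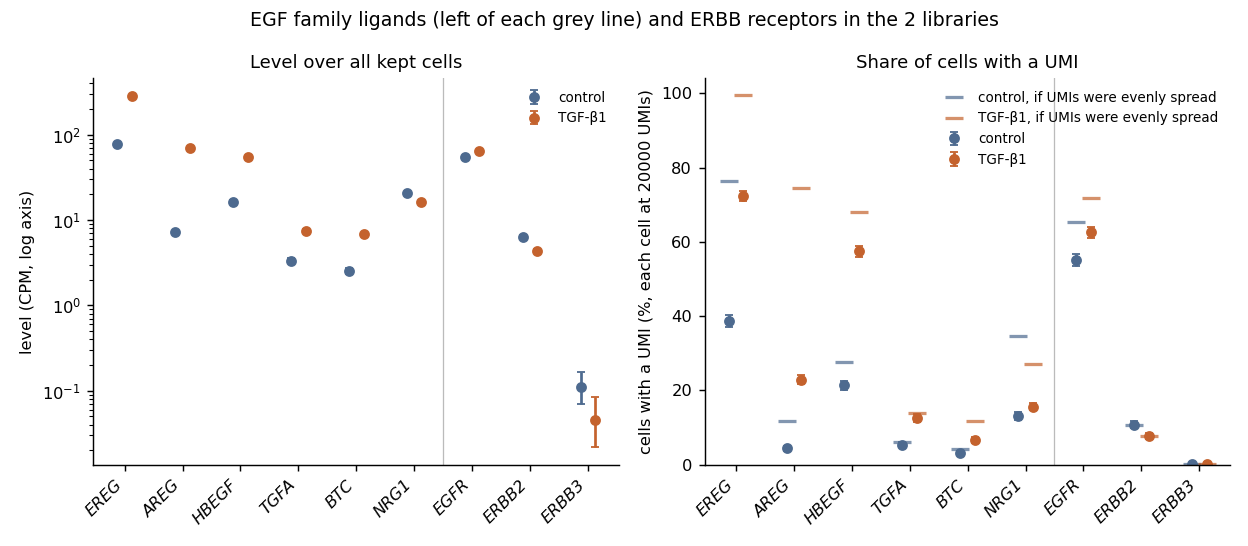
Levels in CPM on a log axis (left panel) and shares of cells with at least 1 UMI after each cell was brought to 20000 UMIs (right panel) for the 9 members in the control library (blue) and the TGF-β1 library (orange). Points are values of 1 library with 95% counting intervals, and horizontal dashes give the share if the UMIs were evenly spread over the cells. AREG goes from 7.16 to 70.1 CPM, and its share of 22.8% after TGF-β1 lies far below the 74.4% of an even spread, whereas ERBB2 lies on its dashes.

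The ligands also differed in how their UMIs were spread over cells. For shares at equal depth, 20000 UMIs were drawn from each cell without replacement. AREG was then found in 170 of 3865 control cells, or 4.4% (3.77 to 5.09), and in 1031 of 4513 TGF-β1-treated cells, or 22.8% (21.6 to 24.1). Without thinning the shares were 8.12% and 31.4%. In cells with a UMI of AREG the mean was 2.85 UMIs in controls and 5.97 after TGF-β1, so the share was 5.19 times and the mean per positive cell 2.09 times as high. An even spread would have given 6.31 times the share.

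AREG remained a gene of few cells after TGF-β1. The 451 cells with most AREG, 10% of the library, held 86.2% of its UMIs, and 1 cell had 277 AREG UMIs before thinning. The same number of UMIs spread evenly over the cells would have given a share of 74.4%, against the 22.8% measured. Its Fano factor, the variance of UMIs over the mean, was 8.01 in controls and 21.2 after TGF-β1, against a median of 1.11 and 1.1 over all genes averaging 1 CPM or more. This placed AREG at percentile 99.4 of those genes in controls and 99.9 after TGF-β1. An uneven spread was not particular to AREG. The Fano factor was 8.44 in controls and 10.7 after TGF-β1 for EREG, and 9.06 and 3.93 for NRG1. For BTC, found in 11.8% of TGF-β1-treated cells without thinning, the richest 10% of cells held 94.6% of its UMIs.

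EREG UMIs occurred in 38.6% (37.1 to 40.2) of controls and 72.3% (71 to 73.6) of TGF-β1-treated cells. Its mean per positive cell was 3.74 UMIs in controls and 7.42 after TGF-β1. The share was 1.87 times and the mean per positive cell 1.98 times as high. An even spread, near its ceiling at 99.5% after TGF-β1, would have given 1.3 times the share. Cells with at least 10 EREG UMIs made up 3.03% of the control library and 19.1% of the TGF-β1 library.

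HBEGF, BTC and TGFA had few UMIs per positive cell, a mean that cannot go under 1, so a higher level can show mainly as a larger share. HBEGF was present in 21.3% (20 to 22.6) of controls and 57.4% (55.9 to 58.8) of TGF-β1-treated cells, 2.69 times the share with 1.31 times the UMIs per positive cell, where an even spread of the UMIs would give 2.46 times the share. HBEGF was also more evenly spread than AREG: its richest 10% of cells held 35.5% of its UMIs after TGF-β1. TGFA was found in 5.36% and 12.5% of cells, 2.33 times the share against 2.29 times for an even spread, with 1.16 and 1.19 UMIs per positive cell, and BTC in 3.16% and 6.6% with 1.34 and 1.89. The share of BTC was 2.09 times as high, less than the 2.82 times of an even spread, and its UMIs per positive cell were 1.41 times as high. For both genes the median per positive cell was 1 UMI in each library.

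Of the 8 members averaging 1 CPM or more, 7 had a higher share after TGF-β1 with intervals that did not overlap, and 1, ERBB2, had a lower one. Of all genes with that mean, 27.5% had a higher and 25.6% a lower share in this sense. The 7 include NRG1, whose share goes against its level, and 6 members were higher without thinning, for the share expected over all draws, with cells thinned to 10000 UMIs and with at least 2 UMIs required. Under the last 2 settings 0 members had a lower share with intervals apart. Without thinning, the member no longer counted as higher was EGFR (80% and 82.2%) and not NRG1 (20.9% and 24.8%). No cell type that should lack these ligands was found in the pool, so the share that free RNA alone would give was not measured.

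NRG1 (ENSECAG00000021343), the ligand of ERBB3 and ERBB4, was the only ligand of the 6 with a lower level after TGF-β1. It had 20.9 CPM (20.3 to 21.6) in controls and 16.2 CPM (15.7 to 16.8) after TGF-β1, with a log2 ratio of -0.37 (-0.43 to -0.30). Its share of cells went the other way, 13% (12 to 14.1) and 15.6% (14.6 to 16.7), and no order of the libraries is read from that share. The UMIs per positive cell were 3.28 in controls and 2.02 after TGF-β1, and cells with at least 10 UMIs made up 1.09% and 0.244%. In the control library 88.4% of the NRG1 UMIs lay in the richest 10% of cells, and 77.6% after TGF-β1.

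Among the receptors, EGFR (ENSECAG00000009952) had the highest level. It had 54.2 CPM (53.2 to 55.2) in controls and 64.7 CPM (63.6 to 65.7) after TGF-β1, with a log2 ratio of 0.26 (0.22 to 0.29). EGFR UMIs appeared in 55.2% (53.6 to 56.8) of control cells and in 62.6% (61.1 to 64) of TGF-β1-treated cells, with 1.92 and 2.02 UMIs per positive cell. Without thinning the shares were 80% and 82.2%. EGFR was thus a gene of most cells in both libraries, and its difference between them was far smaller than that of its 5 ligands. A log2 ratio of either sign whose interval excluded 0 was common here: it lay above 0 for 39.5% and below 0 for 42.2% of all genes averaging 1 CPM or more.

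ERBB2 (ENSECAG00000020409), the partner receptor without a ligand, had 6.25 CPM (5.92 to 6.6) in controls and 4.35 CPM (4.07 to 4.63) after TGF-β1, with a log2 ratio of -0.52 (-0.65 to -0.40). Its share was 10.7% (9.75 to 11.7) and 7.64% (6.89 to 8.46). These shares were close to those of an even spread, 10.6% and 7.77%, and its Fano factors were 0.989 and 1.03. EGFR UMIs outnumbered ERBB2 UMIs 8.67 to 1 in controls and 14.9 to 1 after TGF-β1. ERBB3 (ENSECAG00000024374) had 23 UMIs in controls and 10 after TGF-β1, or 0.109 and 0.0455 CPM, and lay under the minimum of 1 CPM.

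The rest of the family was under 1 CPM. EGF itself had 5 UMIs in each library, and ERBB4, the second receptor for NRG1, had 19 in controls and 22 after TGF-β1. NRG4 was the most abundant of the other 6 family genes with 0.603 and 0.783 CPM, and EPGN, NRG2 and NRG3 had less in both libraries. The ligand NRG1 was thus measured at 20.9 and 16.2 CPM beside 0.109 and 0.0455 CPM for its receptor ERBB3 and 0.0903 and 0.1 CPM for ERBB4.

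Summed over the 5 EGFR ligands, the level was 107 CPM in controls and 422 CPM after TGF-β1. EREG supplied 72.4% of these UMIs in controls and 66.9% after TGF-β1, HBEGF 15.4% and 13.1%, and AREG 6.7% and 16.6%. AREG was the ligand whose part of the sum was larger after TGF-β1, and the part of each of the other 4 was smaller.

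At equal depth, at least 1 of the 5 ligands was found in 55.7% (54.1 to 57.3) of controls and in 90.5% (89.6 to 91.4) of TGF-β1-treated cells. At least 2 were found in 14.9% (13.8 to 16) and 57.5% (56.1 to 59), and at least 3 in 2.07% (1.64 to 2.57) and 20% (18.8 to 21.2). The mean number of ligand genes found per cell was 0.729 in controls and 1.72 after TGF-β1.

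EGFR and at least 1 of its ligands were found together in 30.7% (29.2 to 32.2) of controls and 56.7% (55.2 to 58.2) of TGF-β1-treated cells. EGFR without a ligand made up 24.5% and 5.87%, a ligand without EGFR 25% and 33.8%, and neither 19.7% and 3.61%. The number of ligand genes hardly differed with EGFR: after TGF-β1 the mean number of ligand genes was 1.72 in cells with EGFR and 1.72 in cells without, and in controls it was 0.721 and 0.738. A cell without a UMI at this depth may still express a gene.

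Co-detection of members was compared with the number of cells expected from both shares in the same library, a ratio that had a median between 0.99 and 1.02 over all genes paired with each member. AREG and EREG were found together in 122 control cells, against 65.7 expected, a ratio of 1.86 (1.55 to 2.21). In the TGF-β1 library they were together in 943 cells, against 746 expected, a ratio of 1.26 (1.19 to 1.34). Of the cells with AREG, 71.8% in controls and 91.5% after TGF-β1 also had EREG, so the ratio had less room to exceed 1 in the latter. Doublets were not removed, and their part in this ratio was not tested. Without the cells above the 98th percentile of UMIs, a cut that does not identify doublets, the ratio was 1.88 in controls and 1.27 after TGF-β1.

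BTC went with both genes. AREG and BTC were found together in 15 control cells, 2.8 times the expected number (1.57 to 4.6), and in 132 TGF-β1-treated cells, 1.94 times (1.63 to 2.29). EREG and BTC gave 1.66 (1.31 to 2.06) in controls and 1.28 (1.14 to 1.43) after TGF-β1. AREG, EREG and BTC were all found in 14 control cells and 126 TGF-β1-treated cells.

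HBEGF and TGFA were not found with AREG more often than expected beyond counting error. AREG and HBEGF gave 0.993 (0.697 to 1.37) in controls and 0.967 (0.894 to 1.04) after TGF-β1, and HBEGF and EREG gave 1.01 and 1. AREG and TGFA gave 0.549 (0.178 to 1.28) on 5 shared control cells and 1.08 (0.911 to 1.27) after TGF-β1. BTC and TGFA were found together in 14 control cells, 2.14 times the expected number (1.17 to 3.59) and also 2.14 times within clusters, against 1.08 (0.77 to 1.46) after TGF-β1. BTC and HBEGF gave 0.615 (0.352 to 0.998) on 16 control cells, or 0.703 within clusters, and 0.965 (0.825 to 1.12) after TGF-β1. HBEGF and TGFA gave 1.31 (1 to 1.7) in controls and 1.05 (0.947 to 1.17) after TGF-β1. HBEGF was thus higher after TGF-β1 by about the same factor as EREG, while the cells holding both were close to the expected number.

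Of the receptors, EGFR with AREG gave 0.831 (0.658 to 1.03) in controls and 0.977 (0.907 to 1.05) after TGF-β1, and EGFR with EREG gave 0.994 and 1. EGFR with NRG1 gave 1.12 (1.01 to 1.25) in controls, or 1.05 within clusters, and 1.03 (0.937 to 1.12) after TGF-β1. EREG with NRG1 gave 0.859 (0.736 to 0.997) in controls, or 0.928 within clusters, and 0.998 (0.918 to 1.08) after TGF-β1. NRG1 and AREG were found together less often than expected in controls, 0.452 (0.217 to 0.83) on 10 cells, and after TGF-β1 the ratio was 0.887 (0.749 to 1.04). With the expected number computed within the clusters described further on, the control ratio was 0.679 (0.326 to 1.25), within counting error of 1. ERBB2 and NRG1 gave 0.78 (0.563 to 1.05) and 0.741 (0.53 to 1.01). KRT8, the most abundant epithelial marker in controls, gave 1.48 (1.14 to 1.88) with AREG in controls and 1.29 (0.952 to 1.72) after TGF-β1, and within clusters 1.21 (0.933 to 1.55) and 1.13 (0.828 to 1.5), both within counting error of 1.

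**Figure D2:**
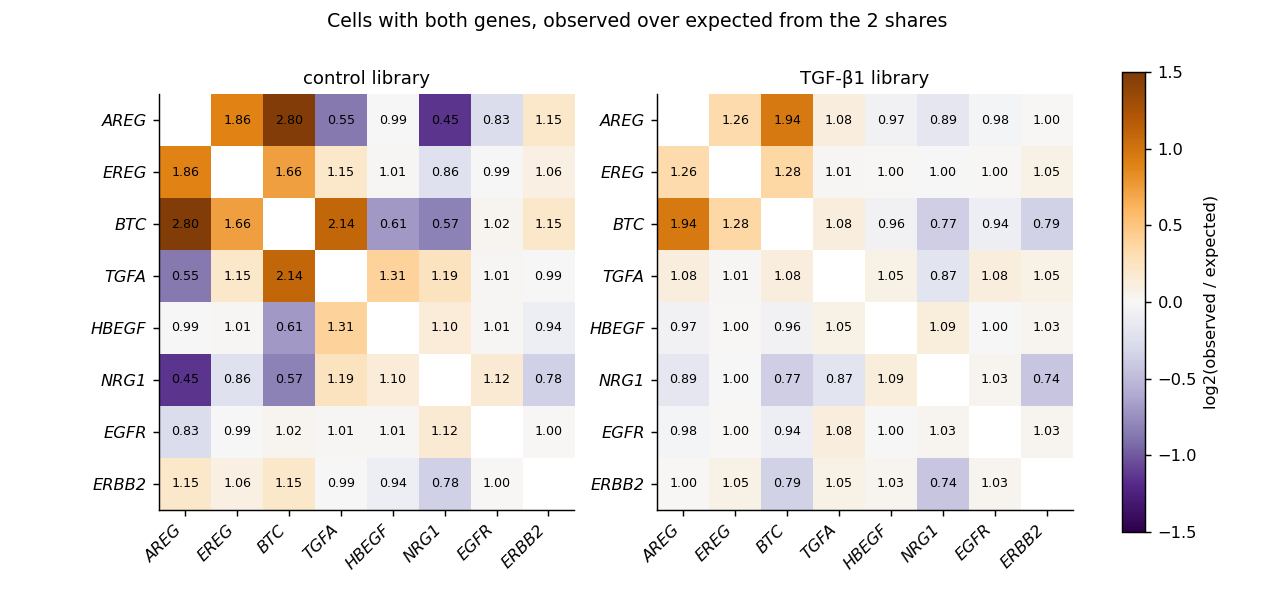
Number of cells in which both genes were found, observed over expected, for each pair of 8 members in the control library (left panel) and the TGF-β1 library (right panel), with the ratio printed in each cell and its log2 as colour. AREG, EREG and BTC are orange with each other in both panels (AREG with BTC 2.8 and 1.94), BTC with TGFA is orange in the control panel only (2.14, against 1.08), and the EGFR row stays near 1 after TGF-β1.

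The tie between AREG and EREG was graded. In the TGF-β1 library, cells without AREG had a mean of 4.11 EREG UMIs at 20000 UMIs per cell. Cells with 1 AREG UMI had 7.04, cells with 2 to 4 had 9.09, cells with 5 to 9 had 11.5 and the 168 cells with 10 or more had 14.8. The share of cells with EREG was 66.7% without AREG and 97% (93.2 to 99) at 10 or more AREG UMIs.

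BTC was found in 4.77% (4.08 to 5.53) of cells without AREG, 8.83% at 1 AREG UMI, 14.1% at 2 to 4, 17.5% (12 to 24.1) at 5 to 9 and 14.9% (9.87 to 21.2) at 10 or more. HBEGF was found less often at high AREG: its share was 58% (56.3 to 59.6) without AREG, 61% (56 to 65.9) at 1 AREG UMI, 58.3% at 2 to 4, 49.4% (41.6 to 57.3) at 5 to 9 and 43.5% (35.8 to 51.3) at 10 or more. These bins pool the clusters described further on, and with the expected number computed within clusters AREG and HBEGF gave 1.14 in controls and 1.01 after TGF-β1. EGFR was found in 63% (61.4 to 64.6) and 60.1% (52.3 to 67.6) of cells at both ends. In the control library only 9 cells had 10 or more AREG UMIs, and 8 of them had EREG.

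**Figure D3:**
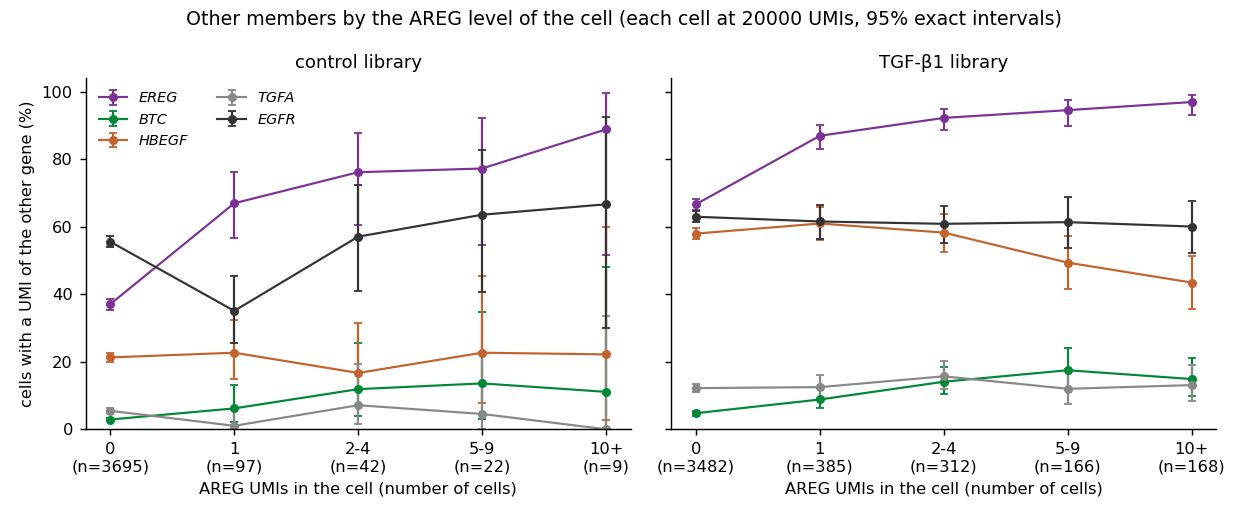
Share of cells with a UMI of EREG, BTC, HBEGF, TGFA or EGFR by the number of AREG UMIs in the same cell, in the control library (left panel) and the TGF-β1 library (right panel), with 95% exact binomial intervals and the number of cells under each bin. In the TGF-β1 library EREG climbs from 66.7% to 97%, BTC goes from 4.77% to 17.5% at 5 to 9 AREG UMIs and 14.9% at 10 or more, HBEGF goes from 58% over 61% at 1 AREG UMI to 43.5%, and EGFR stays between 60.1% and 63%.

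Among 7212 genes with a symbol and an average of 10 CPM or more, EREG had the highest correlation with AREG across cells in both libraries, with Pearson's r of log2(UMIs + 1) of 0.35 over 4513 TGF-β1-treated cells and 0.23 over 3865 control cells. The 99th percentile of r over these genes was 0.07 after TGF-β1 and 0.06 in controls. The next genes after TGF-β1 were ANKRD1 (r = 0.15, and 0.18 in controls), F3, CHRDL1 and RPS23, all at or below 0.15. For EGFR the genes most like it were PTPRM, FNDC3B, EXT1, RBMS3 and UBE2E2, all at r = 0.25, with no ligand among them: EREG stood at 0.0018 and AREG at -0.03. All points of a library share its depth and preparation, and r values this low in sparse counts are given as a description. In the RefSeq gene table for the assembly TB-T2T, which differs from the build of the counts, BTC, AREG, EREG and EPGN follow each other in this order with no other protein-coding gene between them.

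The cells were clustered without the members and without the pathway genes named further on, so that the members did not define the clusters. This gave 7 clusters, each with cells of both libraries, which are called by number. Cluster 5 was cycling-like, with 9 of 9 found cycling markers over 2-fold above their level in other clusters. AREG, EREG and HBEGF were each over 2-fold higher after TGF-β1 in 7 of 7 clusters. The fold of AREG ran from 5.46 in the cycling-like cluster 5 to 17.7 in cluster 6, which held 92 control cells with 9 AREG UMIs and 43 TGF-β1-treated cells with 61. The lowest fold was 3.82 at clustering resolution 0.3 and 3.32 with the list genes kept among the variable genes, and the highest was 25.5 at resolution 0.8. These counts rest on the integration of the libraries: without it, 1 of 7 clusters had over 3 UMIs of each of the 3 genes in both libraries.

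AREG and BTC were highest in cluster 3 in both libraries. The cluster's leading genes were KRT7, KRT8, CEMIP, PALMD and CCN5, and it held 19.2% of control cells and 13.9% of TGF-β1-treated cells. AREG was there at 18.1 CPM in controls and 183 CPM after TGF-β1, whereas in the other clusters it ran from 1.84 to 10.6 and from 30.4 to 63 CPM. BTC was also highest in cluster 3, at 5.64 and 15.7 CPM. EREG was highest there after TGF-β1, at 436 CPM, and in controls it was at 109 CPM there and at 116 CPM in cluster 5. AREG was itself among the 10 leading genes of cluster 3, although it had not been used to form it. Leading genes were ranked on both libraries together, among genes averaging 10 CPM or more. AREG reached that mean only through its level after TGF-β1.

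HBEGF was lowest in that same cluster, at 10.8 CPM in controls and 31.7 CPM after TGF-β1, and highest in cluster 0, at 21.5 and 66.8 CPM. TGFA was also highest in cluster 0, at 4.35 and 9.12 CPM, and its log2 ratio lay between 0.58 and 1.61 over the clusters, over 2-fold in 5 of 7 and with an interval above 0 in 4 of 7. When the expected co-detection was computed within clusters, AREG with EREG gave 1.65 in controls and 1.22 after TGF-β1, and AREG with BTC gave 1.94 and 1.65. These ratios were closer to 1 than those over all cells and still above 1.

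NRG1 was highest in clusters 0 and 6. It had 41 CPM in controls and 28 CPM after TGF-β1 in cluster 0, and 83.8 and 41.6 CPM in cluster 6. In the other clusters it lay between 3.63 and 17.2 CPM. Its log2 ratio was not of 1 sign: it was -1.11 (-1.41 to -0.81) in cluster 3, -0.55 (-0.64 to -0.46) in cluster 0, 0.19 (0.03 to 0.34) in cluster 2 and 1.55 (1.07 to 2.06) in the cycling-like cluster 5. NRG1 was also among the leading genes of cluster 0.

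EGFR varied more between clusters than between libraries. It was lowest in cluster 4, at 17.6 CPM in controls and 17.7 CPM after TGF-β1, and reached 71.9 CPM in cluster 0 of the control library and 97.1 CPM in cluster 6 of the TGF-β1 library. Its log2 ratio ran from 0.01 to 0.50, with an interval above 0 in 6 of 7 clusters. ERBB2 had a log2 ratio between -0.89 and -0.26, with an interval below 0 in 5 of 7 clusters.

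**Figure D4:**
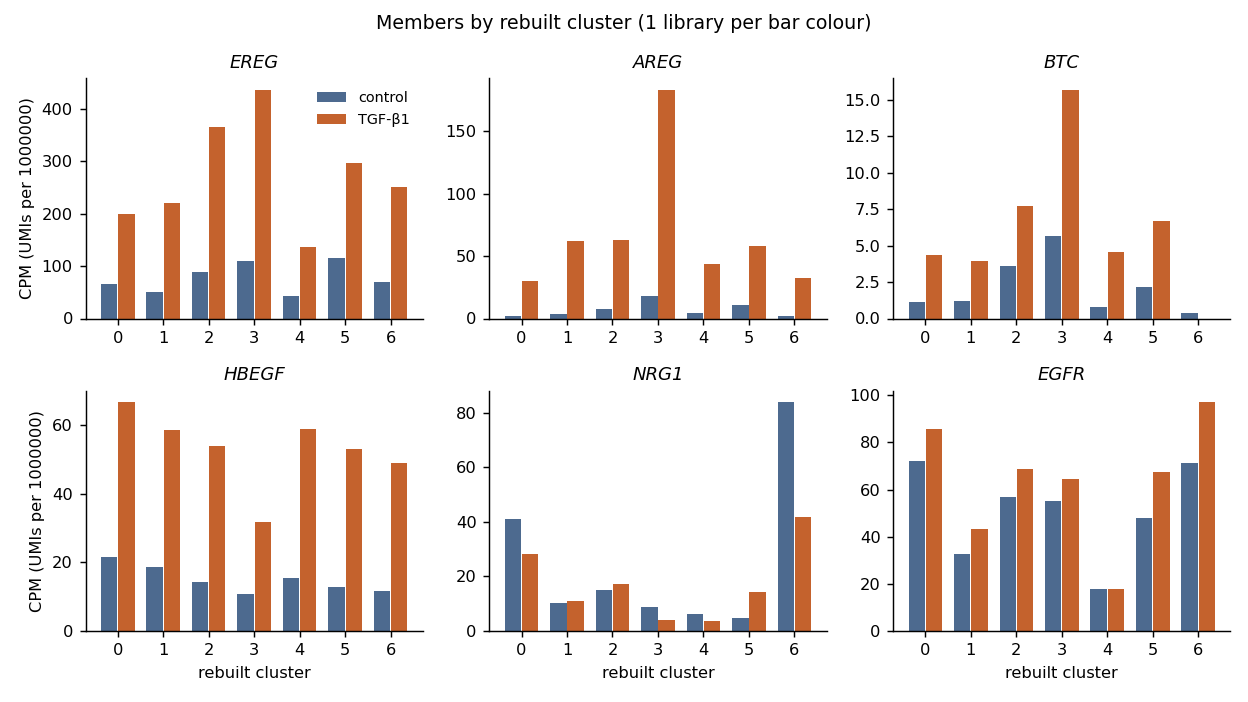
Level in CPM (axis: UMIs per 1000000) of 6 members in the 7 rebuilt clusters, with the control library in blue and the TGF-β1 library in orange, each bar being 1 value without replicates and each panel having its own axis from 0. AREG stands at 183 CPM in cluster 3 after TGF-β1 and HBEGF is lowest there at 31.7 CPM, while NRG1 is highest in cluster 6 and EGFR lowest in cluster 4.

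Over 4 lists of genes around the ligands and receptors, 4 of 70 genes averaging 1 CPM or more (5.71%) were more than 2-fold higher and 4 (5.71%) more than 2-fold lower, against 3.45% and 3.46% of all genes. The 4 higher genes include SPHK1, which passed that mean only through its level after TGF-β1. Of 11 sheddases, the proteases that release the ligands, and their regulators, 1 was more than 2-fold higher and 0 more than 2-fold lower. The median log2 ratio was -0.41, with 2 above 0 and 9 below. The list mixes proteases with regulators, among them the inhibitor TIMP3 at 31.8 and 24 CPM, so its median is not a measure of ligand release. The one past 2-fold was ADAM12, a protease that can release HBEGF, at 93.7 CPM in controls and 225 CPM after TGF-β1 with a log2 ratio of 1.27 (1.24 to 1.29). The other one above 0 was ADAM19, with a log2 ratio of 0.92 (0.88 to 0.96). ADAM9, the most abundant of the list in controls, was at 265 and 197 CPM. ADAM17, the main protease for AREG, EREG and TGFA, named here after its values were seen, was at 39.4 and 37.8 CPM.

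Of 15 feedback inhibitors of the receptors averaging 1 CPM or more, 0 were more than 2-fold higher or lower, and the median log2 ratio was 0.07. CBLB, an enzyme that marks activated receptors for breakdown, had the highest mean over both libraries, at 77.1 CPM in controls and 103 CPM after TGF-β1. ERRFI1, which binds and inhibits EGFR and is named here after its values were seen, was above it in controls, at 90.3 CPM, and at 67 CPM after TGF-β1, with a log2 ratio of -0.43 (-0.46 to -0.40). Of 23 adaptors and members of the RAS and ERK cascade, likewise 0 were more than 2-fold higher or lower, with a median of 0.02. GRB2, the adaptor that links receptors to RAS, was at 172 and 214 CPM.

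Of 21 genes known to respond to ERK and averaging 1 CPM or more, 3 (14.3%) were more than 2-fold higher and 4 (19%) more than 2-fold lower. The shares of all genes were 3.45% and 3.46%, and the median log2 ratio was -0.49. SPHK1 and EGR3 are named here after their values were seen. SPHK1, counted as higher, was at 0.974 and 2.02 CPM and passed the mean only through its level after TGF-β1. EGR3, at 1.36 and 0.182 CPM with a log2 ratio of -2.90 (-3.42 to -2.42), lay under that mean and was not counted. FOS, an immediate early transcription factor, had 194 CPM in controls and 64.3 CPM after TGF-β1, with a log2 ratio of -1.59 (-1.62 to -1.57). EGR1, another immediate early factor, had 175 and 70.9 CPM, with a log2 ratio of -1.30 (-1.33 to -1.27). ETV4, a transcription factor, was higher, with 4.19 and 10.2 CPM and with a log2 ratio of 1.28 (1.17 to 1.40), and so was CCND1, which encodes cyclin D1, with 78.9 and 177 CPM and 1.16 (1.14 to 1.19). IER3, the most abundant of the list, had 632 and 879 CPM.

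**Figure D5:**
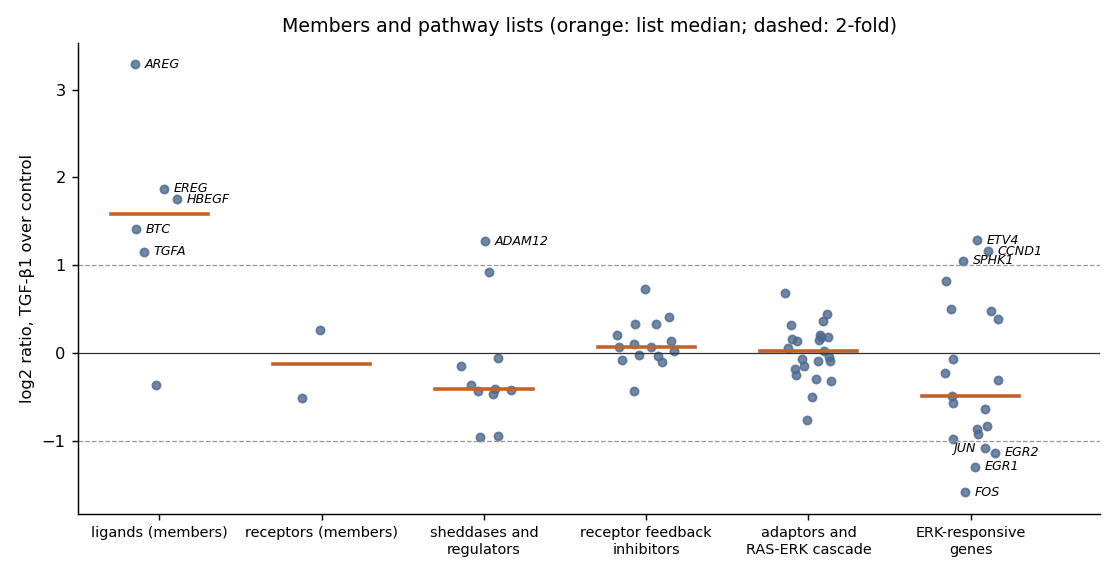
Log2 ratio of TGF-β1 over control for each ligand and receptor member and each gene of the 4 pathway lists averaging 1 CPM or more, with orange bars for list medians, dashed lines at 2-fold and names for genes past them. The ligands lie highest with a median of 1.58, the feedback inhibitors and the adaptors lie around 0, and the ERK-responsive genes spread from -1.59 to 1.28.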

How the data were processed

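The authors deposited counts of UMIs for every gene in every barcode, from Cell Ranger runs against EquCab3.0. Version 7.1.0 is given in the methods and 8.0.1 in the headers of the deposited counts. The counts were whole and not normalized, and the study's filters had not been applied to them. Kept cells were 3865 of 4384 control and 4513 of 5124 TGF-β1 barcodes. The study's calls of doublets and mares rest on the reads and were not repeated, so doublets were not removed.

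UMIs were summed over kept cells and scaled to CPM with pandas 2.3.3, scipy 1.17.1 and numpy 2.4.6 under Python 3.11.15. Ratios carry no pseudocount. Intervals are exact, Poisson for levels and binomial for shares and ratios, and cover counting error only. Intervals of co-detection ratios take the expected number as fixed. Clusters were rebuilt in Seurat 5.3.0 (R 4.3.3) at resolution 0.5, from 30 dimensions of 2000 variable genes after canonical correlation integration. Figures were drawn in matplotlib 3.10.9. The scripts were tested on simulated data.

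The members and lists were chosen with earlier results of these data known. Named genes are all members, EGF, ERBB4, up to 4 genes past 2-fold in each list with its most abundant gene, and the 5 genes most correlated with AREG and with EGFR across cells of the TGF-β1 library. A cluster was called cycling-like when 3 or more markers were over 2-fold higher than in other cells, a rule set with earlier results known. By symbol, ADAM8, PTPRJ and PHLDA1 of the lists and KRT18, KRT19 and MKI67 of the markers were not found, and CD14 had 2 entries and was left out of the immune sum.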

Additional observations from a re-analysis of the deposited data

Results flagged for a closer look

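Barcodes that the filters left out, 519 control and 611 TGF-β1 barcodes with medians of 3728 and 6107 UMIs, enter no value of the report and only some of the alternatives on filters. The share of all genes that differed in these barcodes was not computed, so member levels are given there without a count. AREG was at 2.64 CPM (1.27 to 4.86) in the control barcodes and 46 CPM (39.9 to 52.7) in the TGF-β1 barcodes. EREG was at 73.2 and 238 CPM, HBEGF at 11.4 and 40.4 CPM and BTC at 2.91 and 8.75 CPM. TGFA was at 9.25 and 14.4 CPM and ERBB2 at 14.8 and 8.52 CPM, each with CPM intervals that overlapped. EGFR was at 111 CPM (100 to 122) in the control barcodes and 170 CPM (158 to 182) in the TGF-β1 barcodes. NRG1 was at 61 CPM in the control barcodes and 75.4 CPM in the TGF-β1 barcodes, with a log2 ratio of 0.30 (0.06 to 0.55), against -0.37 in kept cells, and its CPM intervals (53.4 to 69.4 and 67.5 to 83.9) overlapped.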

How the results depend on the processing

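Over 9 alternatives (every deposited barcode, 10000 UMIs as the minimum, 6% as the mitochondrial limit, removal of cells past the 98th percentile of UMIs, removal of cycling-like cells, median-of-ratios scaling, per-cell CPM averaged over cells, a total without mitochondrial genes, and standardised cluster shares), no member's log2 ratio changed sign: AREG ran from 3.26 to 3.45, EREG from 1.86 to 1.91, NRG1 from -0.45 to -0.31 and EGFR from 0.24 to 0.29. With a mean of at least 10 CPM, 3 members were more than 2-fold higher, since fewer genes pass (AREG only through its TGF-β1 value), and the median of the ERK-responsive genes was -0.56. With no minimum, 1 member, ERBB3, was more than 2-fold lower. No member's share was lower with intervals apart when cells were thinned to 10000 UMIs or when at least 2 UMIs were required (0 in each), and the cause was not tested. Without thinning, AREG and EREG gave 1.19 times the expected number of cells in the TGF-β1 library. AREG, EREG and HBEGF were all more than 2-fold higher in 11 of 11 clusters at resolution 0.8, and in 1 of 7 without integration, where 1 cluster had over 3 UMIs of each gene in both libraries. The co-detection expected within clusters was added after seeing the data. No paired analysis was possible because cells of the 4 mares, pooled in both libraries, were not assigned to mares here. Counting intervals hold neither mares nor cultures, and intervals are wide for the rarest genes, as for ERBB3 on 23 and 10 UMIs.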
